A study of Mus musculus with 6 samples.

Results

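The forkhead transcription factor genes were examined in the ventricles of embryos at embryonic day (E) 9.5. They were taken as every row of the deposited expression table whose gene symbol is Fox followed by 1 letter from a to s and a number, which gave 43 of 23284 genes. The table still lists Foxf1 under the older symbol Foxf1a, which this rule leaves out, and its value is given with its neighbours on chromosome 8. RNA-seq compared 3 WT with 3 KD embryos, all labelled as strain C57BL/6. Both groups were tetraploid chimeras, whose fetal tissues, the heart included, are built by the ES cells put into a tetraploid host. The WT embryos came from wildtype ES cells. The KD embryos, labelled Tbx5ua -/-, came from ES cells in which both alleles of Tbx5ua, the lncRNA transcribed divergently from Tbx5, carry tandem polyadenylation signals inserted at the second exon. The KD ES cells were clonal, and the study used 2 KD lines without stating which line each sequenced embryo came from.

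Forkhead proteins bind DNA through a shared winged-helix domain, and one helix of this domain lies in the major groove and reads the bases. The subfamilies have different known roles. Foxh1 carries Nodal and activin signals to DNA together with Smad2 and Smad4, and it is needed for the anterior heart field in the mouse. Foxc1 and Foxc2 act in cardiac outflow tract, endothelial and paraxial mesoderm development. The FoxO factors are held out of the nucleus when AKT phosphorylates them, Foxm1 drives genes of mitosis, and Foxp1 acts in the growth of the ventricular wall and in outflow tract septation.

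The unit is FPKM (fragments per kilobase of transcript, scaled to the number of mapped fragments). There is 1 value per gene for WT, which stands for all 3 embryos, and 1 for KD. Values of single embryos and read counts were not used here, so no SD, test or counting interval accompanies the values, and no difference can be set against the spread between embryos. The depth behind each value is unknown, since no read counts were used here. A log2 ratio below is log2 of KD over WT after 0.1 FPKM was added to both, which understates the change of low genes. A gene was counted as past 1.5-fold when its mean over both groups was at least 1 FPKM and this ratio reached 1.5-fold in either direction. Of 11366 genes with that mean, 6.48% were past 1.5-fold, 3.79% higher and 2.68% lower in KD, and 2.01% were past 2-fold. Of the cell type marker lists, all 6 cardiomyocyte genes were present in both groups, with 0 past 1.5-fold and Tnnt2 at 1842 FPKM in WT against 1807 FPKM in KD. The summed level of 6 epicardial markers was 47.0 FPKM in WT against 95.9 FPKM in KD, with 5 of the 6 past 1.5-fold. The summed level of 7 endocardial and endothelial markers was 133 FPKM in WT against 146 FPKM in KD, with 0 past 1.5-fold. In such bulk tissue fewer cells of a type and less RNA per cell cannot be told apart.

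A minority of the family was present at a clear level. In all, 15 of the 43 genes had a mean of at least 1 FPKM (34.9%, against 48.8% of all genes), 3 lay between 0.1 and 1 FPKM, 15 were above 0 but under 0.1 FPKM, and 10 were listed at 0 in both groups. Foxh1 was the highest member in WT at 20.2 FPKM, followed by Foxc2 at 17.8 FPKM and Foxp1 at 13.1 FPKM. In KD the order was Foxc2 at 25.1 FPKM, Foxp1 at 13.4 FPKM and Foxh1 at 11.3 FPKM. These 3 genes held 48.2% of the summed forkhead FPKM in WT and 47.6% in KD. The sum over the 43 genes was 106 FPKM in WT against 105 FPKM in KD, so the largest members changed places within a nearly constant sum. Without Foxh1 and Foxc2 the sums were 68.0 FPKM and 68.2 FPKM.

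**Figure D1:**
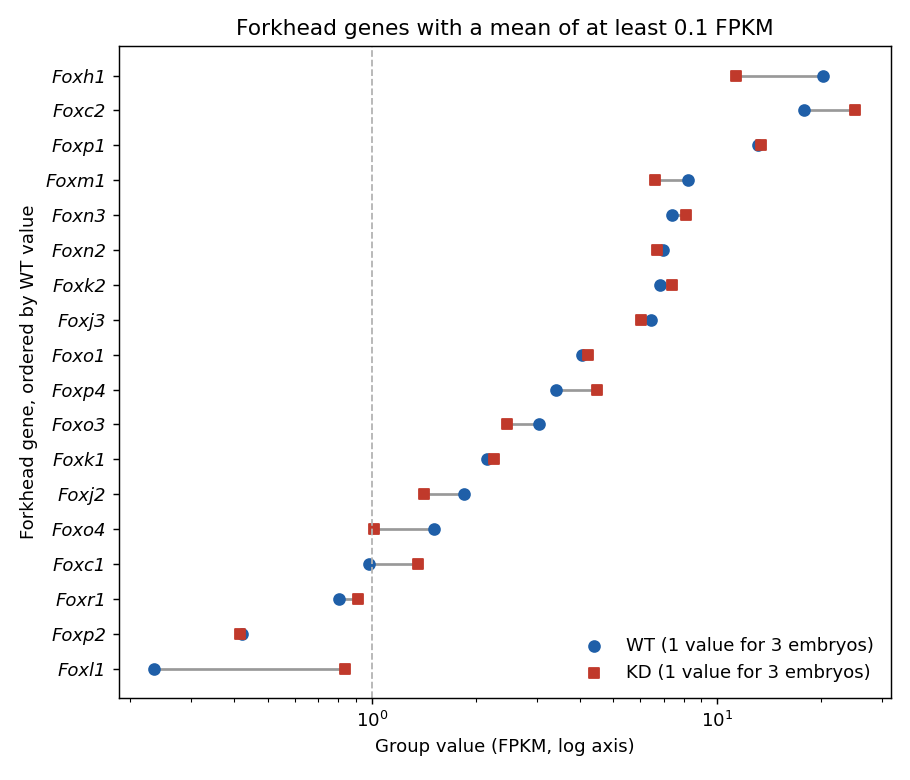
WT (blue circles) and KD (red squares) group values in FPKM on a log axis for the 18 forkhead genes with a mean of at least 0.1 FPKM, ordered by the WT value; each point is 1 value for 3 embryos and the dashed line marks 1 FPKM. The widest gaps are those of Foxl1, which lies under 1 FPKM in both groups, and of Foxh1, the highest gene in WT and the third in KD.

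The part of these genes that makes them a family can be read in their coding sequence. A conserved stretch of 27 coding bases in the DNA-reading helix was taken from GENCODE release M21 transcripts. It was sought in the members that have an entry in the RefSeq promoter table used here (build GRCm38.p6, 28 of the 43 genes). The search used a fixed pattern of helix residues in all reading frames, so members with other residues there could be missed. It matched 21 of the 28 genes. Of these genes with a mean of at least 1 FPKM, 7 are shown 5′ to 3′ on the coding strand, since they are among the members whose mRNA the ventricle holds, and the differences given cover these 7 alone. Capitals mark bases that differ from Foxc1.

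Foxc1 (chr13:31807577-31807603, + strand): aacagcatacggcacaacctctcgctc
Foxo3 (chr10:42197875-42197901, - strand): aacTCcatCcggcacaacctGtcCctG
Foxj2 (chr6:122831436-122831462, + strand): aaTTCcatTcgAcacaacctTtcCctT
Foxk2 (chr11:121296029-121296055, + strand): aaTTCAatTcgCcacaaTctctcTctG
Foxj3 (chr4:119585750-119585776, + strand): aaTTCTatacgAcaTaaTctGtcActG
Foxp4 (chr17:47871325-47871351, - strand): aaTGCcGtGcgCcacaacctcAGCctG
Foxn3 (chr12:99388400-99388426, - strand): aacTCAGtGAgAcacaacTtGtcATtG

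All 7 stretches lie within 1 exon, in the coding part of the gene, on build GRCm38. They differ from Foxc1 at 6 bases in Foxo3, 8 in Foxj2, 9 in Foxk2, 10 in Foxj3 and Foxp4 and 12 in Foxn3. These counts are of bases and not of amino acids. The stretches of Foxo3, Foxj2, Foxk2 and Foxj3 encode the same amino acids as that of Foxc1, and those of Foxp4 and Foxn3 do not. Foxc2, Foxh1, Foxk1, Foxl1, Foxm1, Foxn2 and Foxo4 have no entry in the RefSeq promoter table.

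Foxh1 was the only forkhead gene past 1.5-fold among the 15, and it was lower in KD. It lies on chromosome 15 from 76668307 to 76669873 on the minus strand (build mm10, the coordinates of the table with 1 added to the start). Its value was 20.2 FPKM in WT against 11.3 FPKM in KD, a KD value of 0.561 times WT and a log2 ratio of -0.83. With 1 of 15 genes, the family's share past 1.5-fold stands beside 6.48% of all genes, and 0 of 15 were past 2-fold. Low genes scatter more than high ones, so Foxh1 was also set beside genes of its own level. Of 2805 genes with a mean of 10 to 30 FPKM, 2.89% were past 1.5-fold, and Foxh1 ranked 24 from the lowest ratio among them. Its neighbour Kifc2, a kinesin gene that runs toward it from the plus strand, had 2.18 FPKM in WT against 1.36 FPKM in KD, a log2 ratio of -0.65. The mean of Kifc2 lies between 1 and 2 FPKM, where 21.4% of all genes were past 1.5-fold. The table leaves 110 bases between the ends of the 2 genes and GENCODE 28 bases. The gene models do not overlap, and whether reads of one entered the value of the other was not tested. Ppp1r16a, on the other side of Foxh1, had 7.86 FPKM in WT against 7.23 FPKM in KD.

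The other genes of the Nodal and activin pathway gave the surroundings of Foxh1. The list held 17 genes, of which 10 had a mean of at least 1 FPKM; 1 was past 1.5-fold, lower in KD, beside 2.68% of all genes, and 9 of the 10 had a ratio below 0, beside 49.3% of all genes. With each group scaled to the same sum these were again 9 of the 10, beside 55.0%. Tdgf1, the co-receptor Cripto through which Nodal signals, was that gene, with 2.19 FPKM in WT against 0.720 FPKM in KD (log2 ratio -1.48). Its mean lies between 1 and 2 FPKM, where 21.4% of all genes were past 1.5-fold. Smad4, the common partner of the receptor-activated Smads, had 14.6 FPKM in WT against 11.4 FPKM in KD (log2 ratio -0.35), and Smad2 had 8.49 and 7.92 FPKM. The receptor gene Acvr1b was the exception, with 1.89 FPKM in WT against 2.41 FPKM in KD. The median log2 ratio of the 10 genes was -0.10, against 0.0041 for all 11366 genes. Genes known to be controlled by Foxh1 in the embryo ranged from clearly present to near 0. Mef2c, a myocyte transcription factor gene, had 23.3 FPKM in WT against 23.2 FPKM in KD. Lefty1, a Nodal inhibitor gene, was listed at 0.323 FPKM in WT against 0.117 FPKM in KD, and Gsc, the homeobox gene goosecoid, at 0.285 and 0.0885 FPKM. The ligand gene Nodal was at 0.101 FPKM in WT against 0.0841 FPKM in KD. The list for the second heart field, where Foxh1 is known to act, and pharyngeal mesoderm summed to 6.40 FPKM in WT against 5.54 FPKM in KD. Its 6 genes went both ways, with Tbx1 at 0 in both groups. Fgf8 (2.45 FPKM in WT and 1.41 FPKM in KD), Fgf10 (1.97 and 1.67) and Isl1 (0.559 and 0.361) were lower in KD. Osr1 (0.233 and 0.673) and Barx1 (1.19 and 1.42) were higher in KD. The part of this list in the Foxh1 value was not tested.

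**Figure D2:**
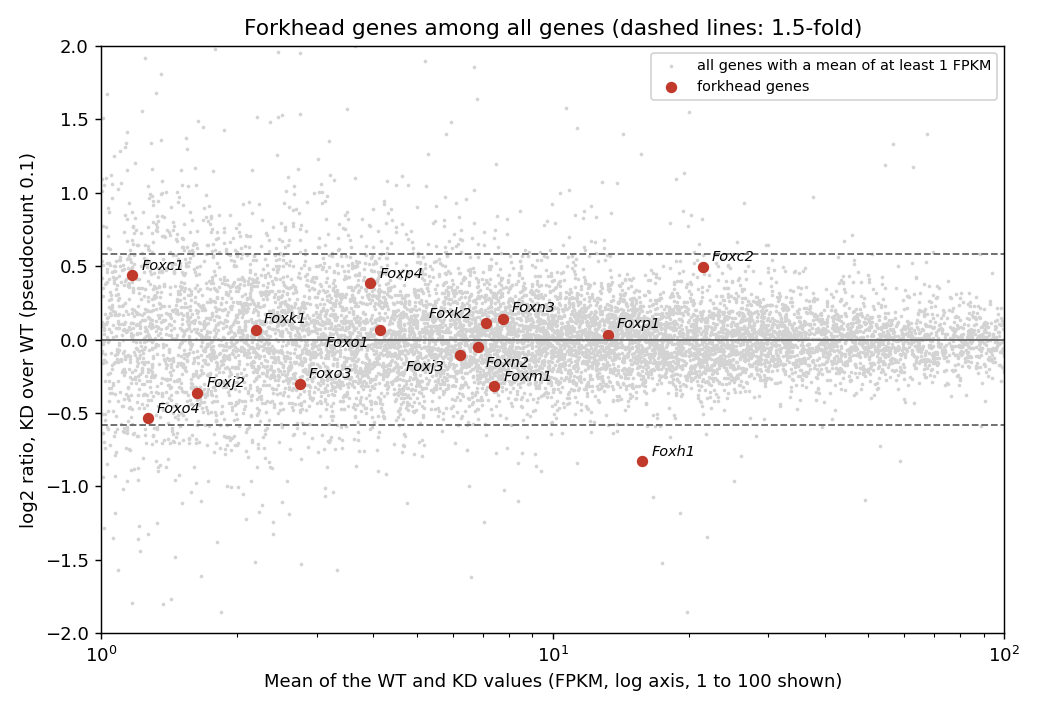
The log2 ratio of KD over WT (pseudocount 0.1 FPKM) against the mean of both group values in FPKM on a log axis, for the 15 forkhead genes (red, named) and all genes with a mean of at least 1 FPKM (grey; means over 100 FPKM and ratios beyond the axis are not drawn). Foxh1 lies below the lower dashed line of 1.5-fold, and Foxc2, at 0.50, lies just inside the upper one.

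The Foxc genes were both somewhat higher in KD without passing 1.5-fold. Foxc2 (chromosome 8, 121116171 to 121118894) has no intron, and its value was 17.8 FPKM in WT against 25.1 FPKM in KD, 1.41 times WT (log2 ratio 0.50). Foxc1 (chromosome 13, 31806646 to 31810635) has no intron either, and its value was 0.979 FPKM in WT against 1.36 FPKM in KD, 1.39 times WT (log2 ratio 0.44). Foxc2 thus stood 18.2 times above its paralogue in WT and 18.5 times in KD. The 2 genes were not equally well placed among genes of their level, since 21.4% of genes with a mean of 1 to 2 FPKM were past 1.5-fold, against 2.89% at 10 to 30 FPKM. Of the 2805 genes in the latter range, 70 had a ratio at least as high as Foxc2, itself included.

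Each Foxc gene lies in a small cluster of forkhead genes, and the other forkhead genes of both clusters were under 1 FPKM. On chromosome 8, Foxf1a, a gene of splanchnic mesoderm, starts 31.7 kb before Foxc2 and was at 0.0965 FPKM in WT against 0.0824 FPKM in KD. Foxl1, a gene of gut mesenchyme, starts 11.5 kb after Foxc2 and was at 0.234 FPKM in WT against 0.839 FPKM in KD, 3.59 times WT. This was the largest ratio of the 3 forkhead genes between 0.1 and 1 FPKM, where Foxp2 had 0.420 and 0.414 FPKM and Foxr1 had 0.804 and 0.913 FPKM. Mthfsd, a gene of another family that lies between Foxf1a and Foxc2, had 11.6 FPKM in WT against 11.2 FPKM in KD. On chromosome 13, Foxq1 was at 0.0293 FPKM in WT against 0.143 FPKM in KD, and Foxf2, which starts 181 kb before Foxc1, was at 0.00931 FPKM in WT and listed at 0 in KD. Gmds, the next gene after Foxc1, had 20.6 FPKM in WT against 23.6 FPKM in KD.

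The bases upstream of the Foxc1 start are shown because Foxc1 is the Foxc gene with an entry in the RefSeq promoter table. They are the 250 bases before the start on the plus strand of GRCm38.p6, at chr13:31806396-31806645, and are without a match to the forkhead core TGTTTAC or to its variant TGTTTGC on either strand.

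Foxc1 upstream: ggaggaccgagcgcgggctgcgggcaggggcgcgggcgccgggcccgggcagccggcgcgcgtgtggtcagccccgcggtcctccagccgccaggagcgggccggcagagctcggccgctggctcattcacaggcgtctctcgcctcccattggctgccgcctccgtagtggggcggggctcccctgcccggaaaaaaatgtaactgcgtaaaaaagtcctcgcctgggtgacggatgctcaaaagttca

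A list of genes that work with Foxc and Foxf factors in mesoderm and endothelium held 15 genes, of which 10 had a mean of at least 1 FPKM. Of these, 3 were past 1.5-fold, all lower in KD, beside 2.68% of all genes lower in KD. Bmp4, a signalling ligand gene, had 6.52 FPKM in WT against 2.96 FPKM in KD (log2 ratio -1.11). Fgf8, a ligand gene of the second heart field, had 2.45 FPKM in WT against 1.41 FPKM in KD (log2 ratio -0.75). Ptch1, the hedgehog receptor gene, had 1.49 FPKM in WT against 0.910 FPKM in KD (log2 ratio -0.66). Fgf8 and Ptch1 have means between 1 and 2 FPKM, the range in which 21.4% of all genes were past 1.5-fold. The other 7 ranged from Prox1, a transcription factor gene of lymphatic endothelium, at 7.94 FPKM in WT against 5.69 FPKM in KD (log2 ratio -0.47), to the Notch ligand gene Dll4 at 4.74 FPKM in WT against 5.59 FPKM in KD (log2 ratio 0.23). Tbx1, which Foxc factors are known to regulate in the pharynx, and Shh were listed at 0 in both groups. The median log2 ratio of the 10 genes was -0.15. The epicardial marker sum given above was also higher in KD, as both Foxc genes and Foxl1 were, and its part in their values was not tested. The paraxial mesoderm markers, another known site of Foxc genes, summed to 0.254 FPKM in WT against 0.356 FPKM in KD over 6 genes, and Uncx and Myf5 were at 0 in both.

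The 3 FoxO genes of the ventricle had ratios on both sides of 0. Foxo1 had 4.05 FPKM in WT against 4.24 FPKM in KD (log2 ratio 0.06). Foxo3 had 3.05 FPKM in WT against 2.46 FPKM in KD (log2 ratio -0.30). Foxo4, the X-linked member, had 1.52 FPKM in WT against 1.01 FPKM in KD, 0.669 times WT (log2 ratio -0.54), the closest to the 1.5-fold line of the genes inside it. The mean of Foxo4 lies between 1 and 2 FPKM, where 21.4% of all genes were past 1.5-fold. The summed FoxO level, with Foxo6 at 0.0346 FPKM in WT against 0.0911 FPKM in KD, was 8.65 FPKM in WT against 7.80 FPKM in KD.

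Upstream of FoxO, 11 of 12 genes of the PI3K and AKT pathway had a mean of at least 1 FPKM, and 1 was past 1.5-fold, higher in KD, beside 3.79% of all genes. This was Sgk1, a kinase that phosphorylates FoxO factors as AKT does, with 9.97 FPKM in WT against 16.0 FPKM in KD (log2 ratio 0.68). Akt1 had 33.6 FPKM in WT against 39.0 FPKM in KD, and Akt2 had 53.2 and 51.2 FPKM. Of 20 known FoxO target genes 19 had a mean of at least 1 FPKM, and 1 was past 1.5-fold, higher in KD, beside the same 3.79%. Gadd45a, a growth arrest and DNA damage gene, had 1.23 FPKM in WT against 2.22 FPKM in KD (log2 ratio 0.80), at a mean between 1 and 2 FPKM, where 21.4% of all genes were past 1.5-fold. The other 18 targets ranged from Cdkn1a, a cell cycle inhibitor gene, at 23.6 and 18.6 FPKM (log2 ratio -0.34) to Txnip, a thioredoxin inhibitor gene, at 25.3 and 34.8 FPKM (log2 ratio 0.46). Between them lay Sod2, the mitochondrial superoxide dismutase gene, at 60.3 and 59.3 FPKM, and Cat, the catalase gene, at 41.4 and 43.9 FPKM. The median log2 ratio was 0.12 for the regulators and 0.11 for the targets, against 0.0041 for all genes.

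Foxm1, on chromosome 6, had 8.24 FPKM in WT against 6.59 FPKM in KD, 0.800 times WT (log2 ratio -0.32). The row 4933413G19Rik shares its locus in the table, so reads of the pair may have been split between them. All 16 of the mitotic genes known as Foxm1 targets were at a mean of at least 1 FPKM, and 0 were past 1.5-fold. Of the 16, 14 had a ratio below 0, beside 49.3% of all genes, and the median log2 ratio was -0.07, against 0.0041 for all genes. With each group scaled to the same sum, 15 of the 16 and 55.0% of all genes lay below 0. Cenpf, a kinetochore gene, lay lowest with 8.45 FPKM in WT against 6.86 FPKM in KD (log2 ratio -0.30). Ccnb1, the mitotic cyclin B1 gene, had 154 FPKM in WT against 132 FPKM in KD, and Cks1b, the cyclin-dependent kinase subunit gene that was highest of the list, had 655 and 615 FPKM. Plk1, a mitotic kinase gene, had 98.3 and 93.9 FPKM.

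**Figure D3:**
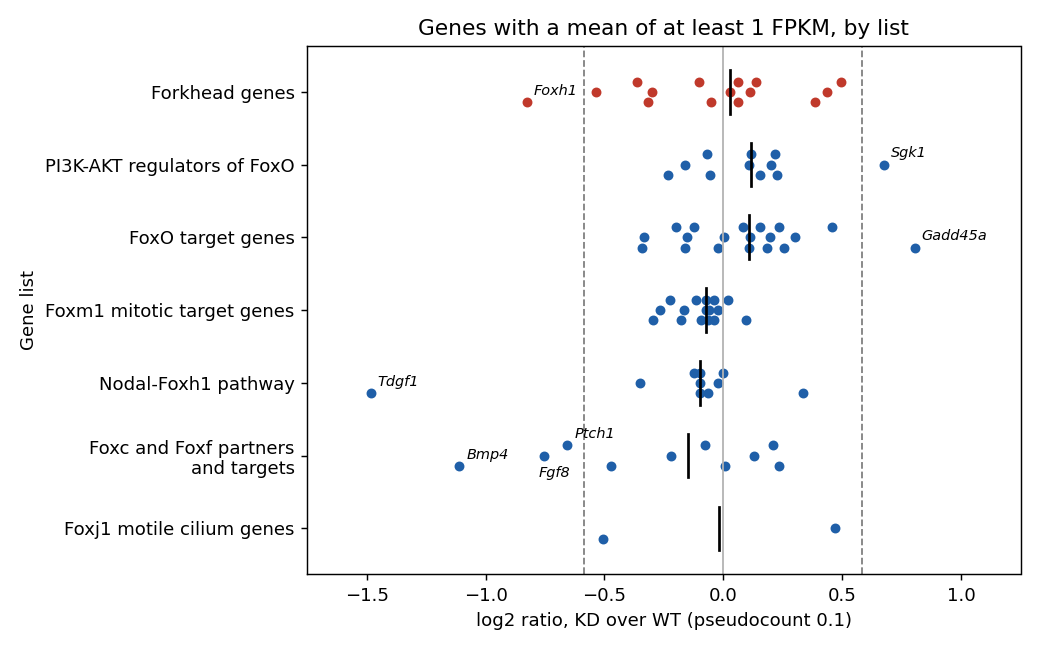
The log2 ratio of KD over WT (pseudocount 0.1 FPKM) of each gene with a mean of at least 1 FPKM, for the forkhead genes (red) and 6 lists of their regulators, partners and targets (blue); each point is 1 gene, black bars are medians and dashed lines mark 1.5-fold. The genes past 1.5-fold are named, and the median of the forkhead genes is 0.028.

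The remaining members with a mean of at least 1 FPKM were the broadly expressed Foxp, Foxk, Foxn and Foxj genes. Foxp1 had 13.1 FPKM in WT against 13.4 FPKM in KD (log2 ratio 0.028), the log2 ratio nearest 0 among the 15. Foxp4, which acts with Foxp1 and Foxp2 as a repressor, had 3.41 FPKM in WT against 4.48 FPKM in KD (log2 ratio 0.39). Foxk1 and Foxk2, regulators of metabolism and autophagy, were at 2.15 and 6.84 FPKM in WT and at 2.25 and 7.40 FPKM in KD. Foxn2 and the checkpoint factor gene Foxn3 were at 6.96 and 7.38 FPKM in WT and at 6.71 and 8.13 FPKM in KD. Foxj2 had 1.85 FPKM in WT against 1.41 FPKM in KD (log2 ratio -0.36), and Foxj3 had 6.45 and 6.01 FPKM. None of these 8 genes was past 1.5-fold.

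For Foxp1 and Foxj3 the 300-base RefSeq promoter window (250 bases before the start to 50 after) holds the forkhead core variant TGTTTGC on one of its strands, which 5.07% of the 32851 windows in the table hold. Foxa1 is the member whose window holds TGTTTAC, found in 3.65% of windows, and the T-box half-site AGGTGTGA is in 0 of the 33 forkhead windows and in 1.28% of all. The other motifs searched on both strands were the palindromic Smad site GTCTAGAC, held by 0 of the 33 forkhead windows and 0.213% of all, the E-box CACGTG, held by 1 (Foxd3) and 7.15%, and the TATA box TATAAA, held by 3 (Foxa2, Foxa3 and Foxp3) and 13.6%. These letters are a description of the window and not a site of binding. The 250 bases before each start are shown with the core in capitals, for Foxp1 at chr6:99520994-99521243 on the minus strand, the farthest upstream of its 3 starts, and beyond the end of the Foxp1 locus in the table at 99435345. They are shown for Foxj3 at chr4:119539411-119539660 on the plus strand, where the core is on the opposite strand and reads as its reverse complement.

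Foxp1 upstream: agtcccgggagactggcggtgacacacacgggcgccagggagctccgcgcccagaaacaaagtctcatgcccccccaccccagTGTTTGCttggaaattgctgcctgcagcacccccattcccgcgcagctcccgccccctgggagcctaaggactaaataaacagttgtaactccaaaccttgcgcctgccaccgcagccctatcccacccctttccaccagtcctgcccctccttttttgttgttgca
Foxj3 upstream: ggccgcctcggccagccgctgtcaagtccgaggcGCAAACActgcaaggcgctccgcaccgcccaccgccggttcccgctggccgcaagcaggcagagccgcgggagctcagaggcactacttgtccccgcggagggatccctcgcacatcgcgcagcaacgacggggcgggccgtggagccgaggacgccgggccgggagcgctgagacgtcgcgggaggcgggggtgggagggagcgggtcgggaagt

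The other 25 forkhead genes were under 0.1 FPKM on average, among them the family's best known regulators of other organs. The endoderm factor genes Foxa1, Foxa2 and Foxa3 were listed at 0, 0.0550 and 0.0112 FPKM in WT and at 0, 0.0898 and 0 FPKM in KD. Foxd3, the neural crest factor gene, and the Foxi genes were listed at 0 in both groups. Foxj1, the master regulator gene of motile cilia, was at 0 in WT and 0.0448 FPKM in KD, and Foxp3, the regulatory T cell factor gene, was at 0.0162 and 0.0141 FPKM. Of a list of motile cilium genes with 15 symbols, of which Dnaic1 and Dnai1 name 1 gene, 9 were matched to the table, 2 had a mean of at least 1 FPKM and 0 of them were past 1.5-fold; Ccdc40, the highest in WT, had 1.20 and 0.816 FPKM (log2 ratio -0.51), and Rfx3, a transcription factor gene of ciliogenesis, had 1.06 FPKM in WT and a log2 ratio of 0.47. Markers of tissues in which these genes are known to act were also low. The foregut and pharyngeal endoderm list summed to 3.72 FPKM in WT against 3.89 FPKM in KD over 7 genes, mostly Sox17, which endothelium also expresses. The neural and neural crest list summed to 1.53 and 0.854 FPKM over 6 genes, and the hepatic and yolk sac list to 0.607 and 1.37 FPKM over 5 genes, with Alb and Fgb at 0 in both. The primitive erythroid list, by contrast, summed to 11444 and 11520 FPKM. Without the 1 FPKM filter, 33 members were above 0 in either group and 5 were past 1.5-fold on the pseudocount scale, Foxd4, Foxl1 and Foxq1 higher and Foxh1 and Foxs1 lower, where 16.2% of all genes above 0 were. The differences behind the 3 lowest of these were 0.128 FPKM for Foxd4, 0.114 FPKM for Foxq1 and -0.0996 FPKM for Foxs1.

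Of 16 forkhead genes with a single coding exon in GENCODE, 2 had a mean of at least 1 FPKM, Foxc1 and Foxc2. Of 27 with several coding exons 13 did, and this difference was not tested. No split of all genes by coding exons is given here, so the difference cannot be called particular to forkhead genes. Over the 15 members with a mean of at least 1 FPKM, 8 ratios were above 0 and 7 below, and the median log2 ratio was 0.028, which became -0.0023 when each group was scaled to the same sum. The quartiles of the 15 ratios were -0.31 and 0.13, and those of all 11366 genes were -0.14 and 0.15.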

How the data were processed

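Libraries were prepared with Smart-Seq2 from 10 ng of total RNA, with 12 cycles of preamplification and 9 of enrichment PCR. The submitters' processing notes name TopHat, Bowtie2, Cuffdiff and mm10. Versions are not given in the sources used here. The authors deposited 1 Cuffdiff table with an FPKM value per gene for WT and for KD, the latter headed KO. Its columns of fold change, test statistic, p-value and q-value hold the authors' own comparison and were not used. In 2 rows the 0 marks a gene with too many reads. No per-sample column was present (0 left unused). No model was fitted, since each group has 1 value.

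Log2 ratios used a pseudocount of 0.1 FPKM, and genes were kept at a mean of at least 1 FPKM. Starts in the table count from 0, and 1 was added: 12 members then matched a GENCODE release M21 start, against 3 without. The rule names all 43 members, and from each pathway list the genes past 1.5-fold or, failing that, the gene with the highest WT value; further list genes named in the text were picked with their values in view. Some items under this rule are not reported here. The members and lists were chosen with earlier results of these data known. The level ranges of 1 to 2 and 10 to 30 FPKM, the ranks within the latter and the promoter motifs were chosen with the values in view. The counting script was tested on simulated data. Alternatives were a 2-fold threshold, pseudocounts of 1 and 0.01, other filters and 2 scalings. Python 3.11.15, NumPy 2.4.6, pandas 2.3.3 and Matplotlib 3.10.9 were used.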

Additional observations from a re-analysis of the deposited data

How the results depend on the processing

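The count of forkhead genes past 1.5-fold, 1 of 15, was again 1 with a pseudocount of 1 or 0.01, with a mean of at least 5 FPKM (8 genes), less the median of all genes, and scaled to a common sum. It was 0 at 2-fold and 5 of 33 with no filter, which adds genes under 1 FPKM. The median log2 ratio of 0.028 became -0.016 with no filter, -0.012 with a mean of at least 5 FPKM, 0.024 less the median of all genes and -0.0023 when scaled to a common sum. Of 60 values of single members under the 2 pseudocounts and 2 scalings, 59 kept their sign and their side of 1.5-fold. The exception was Foxp1, which crossed 0 when scaled to a common sum, a step that moves all genes by 1 factor. The count of genes below 0 in the Nodal and mitotic lists under the scalings was added after the data were seen. No paired analysis was possible because WT and KD each have a single pooled column, and leaving out each embryo was not run for the same reason. With the depth unknown, ratios of members under 1 FPKM have no stated precision.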

Other observations

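The RefSeq promoter windows of the forkhead genes differed in median base composition with level, over ranges that overlapped. The 11 windows of 9 genes with a mean of at least 1 FPKM had a median GC content of 70.3%, from 48.7% to 79.3%. The 22 windows of the other 19 genes had a median of 61.3%, from 40.7% to 71.3%, and all 32851 windows had a median of 52.7%. The ratio of observed to expected CpG had a median of 0.940 in the first set and 0.621 in the second. Windows of 1 gene share a locus, and no test was made. No split of all windows by level is given here, so the difference cannot be called particular to forkhead genes.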
